A study of Mus musculus with 66 samples.

Results

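The nuclear genes for the proteins of the mitochondrial ribosome were followed across 3 cultures of mouse small intestinal organoids. Members were all rows of the RNA table whose gene symbol starts with Mrpl or Mrps followed by a digit, a rule that uses no measured value. It found 80 transcripts of 76 gene symbols (47 Mrpl and 29 Mrps) among 9481 transcripts of 8978 symbols, and 4 of the symbols (Mrpl1, Mrpl39, Mrps27 and Mrps36) were listed as 2 transcripts each.

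Organoids of a single Lgr5 GFPDTR/+ line, in which 1 copy of the stem cell gene Lgr5 carries a fluorescent reporter and a toxin receptor, were maintained in ENR, a medium with epidermal growth factor, Noggin and R-Spondin-1. CV organoids, enriched for stem cells, were grown in ENR with 3 µM CHIR99021 (an inhibitor of the kinase Gsk3) and 1 mM valproic acid (an inhibitor of histone deacetylases) for 5 days, and EN organoids, depleted of stem cells and enriched for enterocytes, were grown for 2.5 days in ENR without R-Spondin-1. RNA-seq and ATAC-seq (chromatin accessibility) were read in 4 libraries per culture, ChIPmentation of the histone marks H3K27ac, H3K4me3 and H3K27me3 in 3 per culture, and ChIPmentation of the transcription factor Hnf4g in 1 per culture. The cultures are mixtures of cell types in different media, so effects of the medium, of CHIR99021 or valproic acid and of the cell types cannot be told apart, nor can fewer cells of a type and less RNA per cell.

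Mitochondria keep a small genome of their own, and the few proteins it encodes, all core subunits of the respiratory chain and the ATP synthase, are made on ribosomes inside the organelle. Every protein of those ribosomes is encoded in the nucleus, translated in the cytosol and imported. Some of them descend from bacterial ribosomal proteins and others, such as Mrps27 or Mrpl39, are found only in mitochondria. The names follow the subunit in which a protein was first placed: Mrpl proteins belong to the large subunit with its peptidyl-transferase centre, Mrps proteins to the small subunit that reads the mRNA. Later structures moved Mrps30 and Mrps18a to the large subunit, and Mrps36 is now known as a component of the oxoglutarate dehydrogenase complex of the citric acid cycle. The groups given here follow the symbols.

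The 12 RNA libraries held 5630977 to 8859757 expected counts beside the spike-in transcripts, of which 15468 to 33315 fell on members. Values per library are counts per 1000000 (CPM) scaled by TMM, a normalization that assumes most transcripts do not change, and its factors were 1.11 to 1.13 in CV, 1.07 to 1.08 in ENR and 0.83 to 0.84 in EN. Of the stem cell and proliferation markers, 8 of 8 and 9 of 9 transcripts were lower in EN than in CV, and of the enterocyte and goblet cell markers 10 of 10 and 5 of 5 were higher. Enteroendocrine and tuft cell markers were higher in 5 of 5 (median log2 fold change 6.34, enterocyte markers 2.93). Of 4 Paneth cell marker transcripts, 2 were higher and 2 lower. Of 8 marker symbols of fibroblasts and immune cells, 4 were in the RNA table, which is limited to transcripts whose proteins had been quantified. Their transcripts summed to at most 0.865 TPM, the length-corrected share of the transcripts, in any library. Summed TPM of the members was lowest in EN (means 7011 in CV, 6151 in ENR and 4610.5 in EN). So were the sums of the stem cell markers (322, 989 and 20.5) and of the proliferation markers (863, 976 and 170). Both marker sums were higher in ENR than in CV, unlike that of the members. Single stem cell markers went both ways, with log2 fold changes of CV over ENR from -6.78 to 4.86. Of the 8 transcripts, 3 were higher and 4 lower in CV by edgeR (adjusted p under 0.01). Enterocyte markers were highest in EN and lowest in ENR (18573, 10624 and 55371). The part of cell type composition in the members' counts was not tested.

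All 80 members were read in enough libraries to be tested, and their levels covered a wide range. On the TPM scale, which accounts for transcript length, the 5 members with the highest mean over the 12 libraries were Mrpl33 (266 TPM), Mrps21 (261), Mrpl52 (248), Mrps18c (195) and Mrpl12 (167). Mrpl33 and Mrpl12 are homologues of bacterial proteins, the latter in the stalk that binds translation factors, whereas Mrpl52 is specific to mitochondria. The lowest means were those of the second transcript of Mrps27 (0.449 TPM), the transcript NM_001190264.1 of Mrps36 (9.05), Mrps25 (9.26), the transcript NM_017404.4 of Mrpl39 (9.60) and Mrpl17 (10.54).

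Members were mostly lower in EN than in CV, by small amounts and in both subunits. A transcript was called when its adjusted p from edgeR was under 0.01, which held for 76.4% of all 9288 tested transcripts in this comparison, 41.2% lower and 35.2% higher in EN. Of the 80 members, 60 were called, a share near that background, but 53 of them (66.2% of the members) were lower and 7 (8.75%) higher. The median log2 fold change of the members was -0.39 against -0.08 over all transcripts, and it kept its sign with spike-in scaling (-0.81, all transcripts -0.49) and on TPM (-0.69, all -0.34) but turned positive on the deposited copy numbers (0.37, all 0.62). Relative to the median of all transcripts, 60 of the 80 members lay lower by TMM, 61 on log2(TPM + 1) and 56 on the copy numbers. Changes over 2-fold were called for 8 members and for 3285 of all transcripts. In 54 members (67.5%) each EN library lay below each CV library, as in 41.6% of all transcripts.

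Falls were found in both subunits and in proteins of both origins. Of the 49 Mrpl transcripts, 33 were lower, 5 higher and 11 not called, with a median of -0.38. Of the 31 Mrps transcripts, 20 were lower, 2 higher and 9 not called, with a median of -0.40. Homologues of bacterial proteins had 34 of 47 transcripts lower and 3 higher (median -0.41), and mitochondria-specific proteins 19 of 30 lower and 4 higher (median -0.39). The 3 transcripts left out of both classes, of Mrps36 and Mrpl55, were not called. No difference between these classes was tested.

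**Figure D1:**
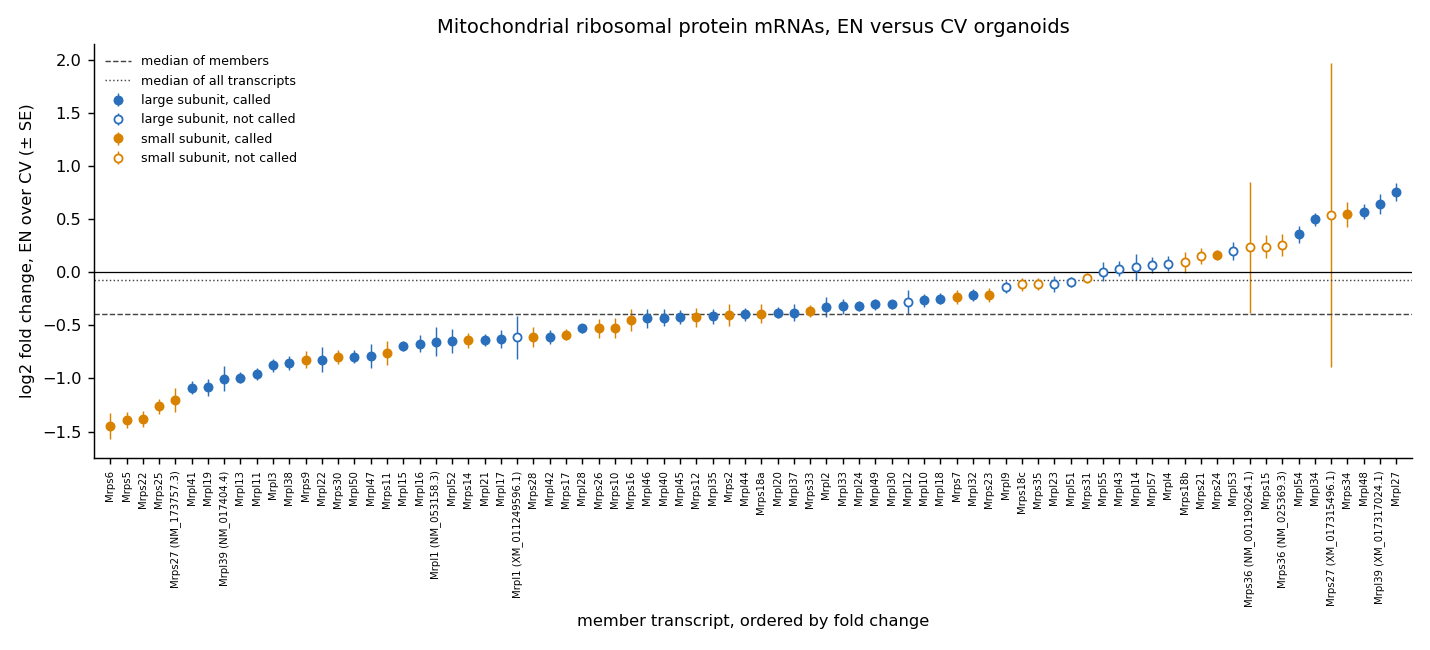
Log2 fold change of each member transcript in EN over CV (y axis, points with SE from edgeR, 4 libraries per culture), ordered from the largest fall to the largest rise, coloured by the subunit in the symbol and filled where called. The points run from -1.45 (Mrps6) to 0.76 (Mrpl27), with 53 called below 0, 7 called above it and the median of the members at -0.39 below that of all transcripts at -0.08.

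The largest falls from CV to EN were in Mrps symbols. Mrps6, the homologue of a bacterial small-subunit protein, stood at 19.5, 17.8, 16.8 and 17.4 CPM in CV, 10.6, 12.4, 9.26 and 12.7 in ENR and 6.97, 6.00, 6.42 and 6.62 in EN. The cultures did not overlap and stepped down from CV over ENR to EN, with a log2 fold change of -1.45 ± 0.12 (SE) between EN and CV (adjusted p = 1.8e-08). It was also the 1 member called lower on the copy numbers, at -0.75 (adjusted p = 0.0052). Its start region is shared with Slc5a3, which is also in the RNA table, so its values are uncertain where reads of both genes could not be separated. Mrps5, which lies where the mRNA enters the small subunit, had 93.3, 83.7, 85.9 and 83.4 CPM in CV, 73.2, 73.3, 77.4 and 73.2 in ENR and 35.8, 34.9, 26.6 and 34.4 in EN. No libraries of different cultures overlapped: ENR lay slightly below CV (CV over ENR 0.22 ± 0.067, adjusted p = 0.0089) and EN further down, at -1.39 ± 0.075 against CV (adjusted p = 8.6e-11).

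Mrps22, a mitochondria-specific small-subunit protein, was read at 69.1, 64.3, 70.5 and 66.9 CPM in CV, 67.9, 64.3, 64.7 and 63.8 in ENR and 24.4, 21.6, 28.2 and 29.2 in EN. CV and ENR overlapped and did not pass the test (0.05 ± 0.066), while EN was lower than CV by -1.38 ± 0.074 (adjusted p = 9e-11). For Mrps27, whose protein carries the helical repeats of RNA-binding proteins, the transcript NM_173757.3 had 23.3, 27.1, 27.6 and 32.4 CPM in CV, 30.6, 31.1, 32.3 and 31.5 in ENR and 11.3, 13.9, 9.81 and 13.2 in EN. Here too EN stood apart from both, at -1.20 ± 0.11 against CV (adjusted p = 1e-07). Mrps25, also specific to mitochondria, fell by 1.26 ± 0.069 on the log2 scale, from 46.7 to 54.0 CPM in CV to 18.9 to 22.0 in EN. Among the large-subunit members, Mrpl41 (44.1 to 47.8 CPM in CV, 32.2 to 35.8 in ENR, 20.8 to 22.9 in EN) fell by 1.09 ± 0.060 and Mrpl19, a homologue of a bacterial protein at the subunit interface, by 1.08 ± 0.082, both with no overlap between EN and CV. On the copy numbers Mrps5, Mrps22, Mrps25 and Mrps27 kept negative values of -0.68, -0.69, -0.50 and -0.47 but were not called.

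A total of 7 member transcripts were called higher in EN than in CV. Mrpl27, a homologue of the bacterial protein that reaches toward the peptidyl-transferase centre, had 32.3, 33.5, 34.1 and 30.5 CPM in CV, 51.7, 44.3, 46.3 and 40.6 in ENR and 59.5, 60.4, 53.3 and 47.8 in EN. All EN and ENR libraries were above all CV libraries, and EN exceeded CV by 0.76 ± 0.087 on the log2 scale (adjusted p = 7.8e-07), or 0.42 on log2(TPM + 1), which was called, and 0.34 with spike-in scaling, which was not. Mrpl48, specific to mitochondria, was read at 45.0, 40.0, 43.3 and 38.8 CPM in CV, 67.9, 68.6, 78.5 and 70.5 in ENR and 60.7, 67.7, 56.9 and 63.3 in EN. The CV libraries were thus the low ones, and EN lay between CV (0.57 ± 0.070, adjusted p = 1.7e-06) and ENR (-0.20 ± 0.067, adjusted p = 0.013). Mrpl34, homologous to one of the smallest bacterial ribosomal proteins, was higher in EN than in both other cultures, from 32.2 to 33.4 CPM in CV and 31.7 to 36.0 in ENR to 41.7 to 50.1 in EN (0.50 ± 0.064 against CV). That value was 0.16 on log2(TPM + 1) and 0.08 with spike-in scaling, neither of them called.

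The remaining called rises were those of the transcript XM_017317024.1 of Mrpl39 (0.64 ± 0.091), Mrps34 (0.54 ± 0.12, with 14.3 to 14.6 CPM in CV and 16.1 to 25.8 in EN), Mrpl54 (0.36 ± 0.080) and Mrps24 (0.16 ± 0.050, adjusted p = 0.0069). With spike-in scaling the adjusted p of the 7 by edgeR lay between 0.087 and 0.78, Mrpl54 turned to -0.06 and Mrps24 to -0.26, and on log2(TPM + 1) Mrps24 was called lower (-0.17). The call of Mrps24 was also lost in 6 of the fits that left out 1 library. On TPM the calls that stayed were those of Mrpl27, Mrpl48 and Mrpl39.

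**Figure D2:**
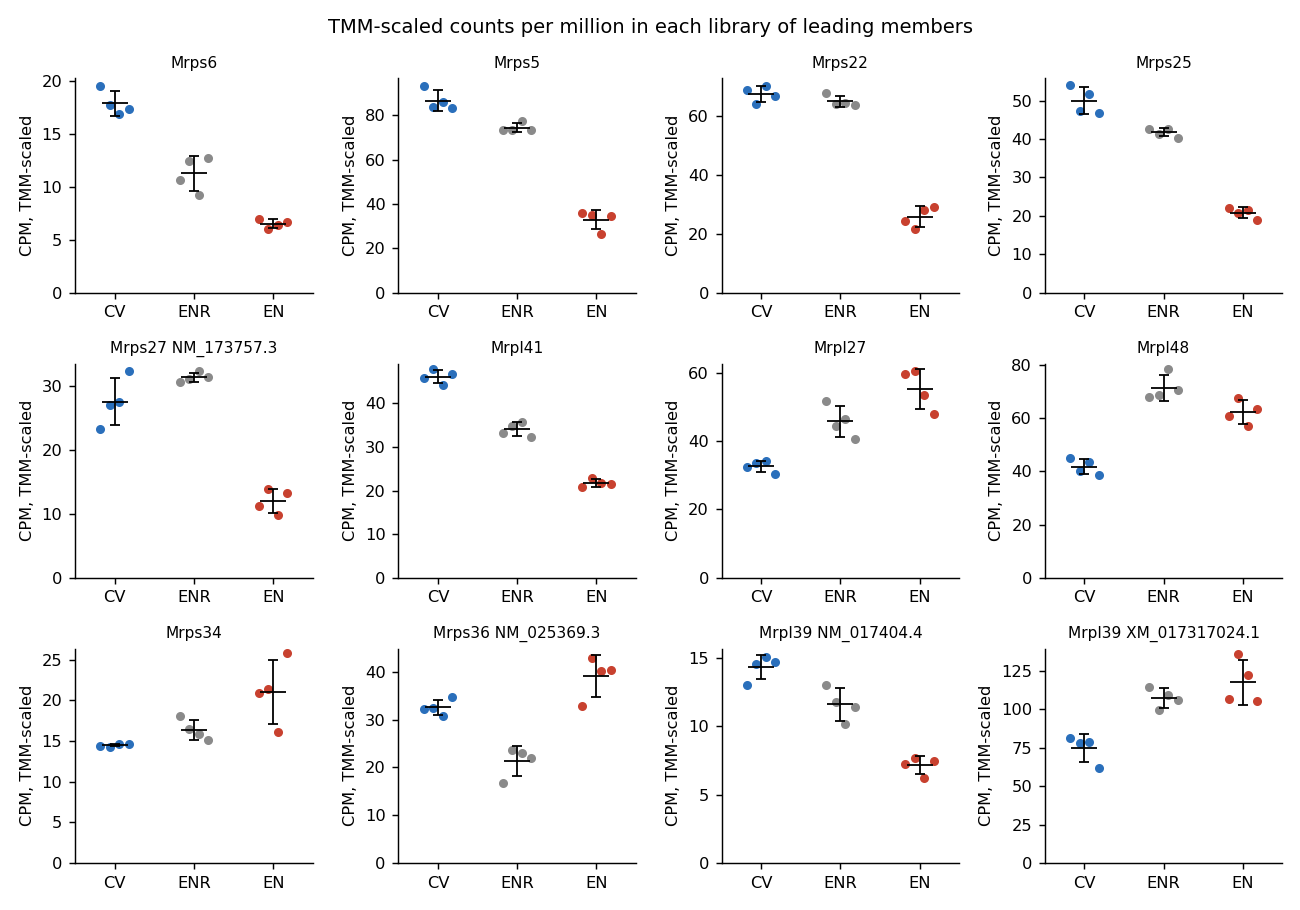
TMM-scaled CPM (y axis, starting at 0) in each of the 4 libraries of CV, ENR and EN for 12 member transcripts, with the mean and SD of each culture. Mrps6 steps down from 16.8 to 19.5 in CV to 6.00 to 6.97 in EN, Mrps5, Mrps22 and Mrps27 are lowest in EN, and Mrpl27 and Mrpl48 are lowest in CV.

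EN and ENR differ by R-Spondin-1 alone as the labels describe the media, and there the members fell in a like share. Among all transcripts 72.7% were called, 37.2% lower and 35.5% higher in EN, and among the members 52 of 80, of which 46 (57.5%) were lower and 6 (7.5%) higher. The members' median was -0.35 against -0.01 over all transcripts, and again it turned on the copy numbers (0.62 against 0.88) while 56 of 80 members stayed below the median of all transcripts there. The EN libraries enter both this comparison and that with CV, so the calls of both are not independent. The largest falls were those of Mrps27 (-1.38 ± 0.11), Mrps22 (-1.32 ± 0.075), Mrpl19 (-1.27 ± 0.082), Mrps5 (-1.17 ± 0.076) and Mrps30 (-1.10 ± 0.064). Mrps30 stood at 66.3, 73.8, 68.0 and 76.3 CPM in ENR, 55.9, 58.2, 60.6 and 55.9 in CV and 36.2, 32.1, 31.9 and 32.1 in EN. It was thus highest in ENR, with no overlap between any of the cultures.

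The rises from ENR to EN were led by Mrps36. Its transcript NM_025369.3 had 16.8, 23.6, 23.1 and 22.0 CPM in ENR, 32.2, 32.6, 30.9 and 34.7 in CV and 32.8, 43.0, 40.3 and 40.5 in EN. The ENR libraries were the low ones, and EN exceeded ENR by 0.87 ± 0.11 (adjusted p = 1.8e-06), a value of 0.69 on log2(TPM + 1), which was called, and of 0.33 with spike-in scaling, which was not. Mrpl4 (33.2 to 39.4 CPM in ENR, 44.3 to 56.1 in EN), which lines the exit tunnel of the large subunit, and Mrpl43 (38.4 to 48.6 in ENR, 55.9 to 67.8 in EN), specific to mitochondria, rose by 0.48 ± 0.075 and 0.47 ± 0.075, and both were at -0.02 with spike-in scaling. Mrpl34 (0.44), Mrpl27 (0.27) and Mrps21 (0.26, but -0.25 with spike-in scaling, and not called in 5 of the fits that left out 1 library) completed the called rises.

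Between CV and ENR the direction of the members depended on the scale. Of all transcripts 60.0% were called, 30.2% higher and 29.8% lower in CV, and of the members 33 of 80, 21 (26.2%) higher and 12 (15%) lower, with a median of 0.02 that changed sign with the normalization (-0.01 by DESeq2). On log2(TPM + 1) the median was 0.17 (all transcripts 0.13), with 35 members called higher and 5 lower in CV (all transcripts 3713 and 1895), and the summed TPM was higher in each CV library than in each ENR library. The members' values ran from -0.77 to 0.67. The largest rises in CV were those of Mrps6 (0.66 ± 0.11), Mrps36 (0.62 ± 0.11), Mrpl20 (0.53 ± 0.054), Mrpl16 (0.46 ± 0.078) and Mrpl41 (0.44 ± 0.056), of which Mrpl16 and Mrpl20 are homologues of bacterial large-subunit proteins. Mrpl20 was read at 68.6, 70.6, 70.1 and 68.8 CPM in CV against 43.9, 47.5, 50.1 and 51.2 in ENR and 53.2, 55.2, 55.1 and 50.5 in EN. Its CV libraries were the high ones, while ENR and EN lay close to each other (0.15 ± 0.056, adjusted p = 0.024).

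In the other direction, Mrpl48 (-0.77 ± 0.068), the transcript XM_017317024.1 of Mrpl39 (-0.52 ± 0.091), Mrpl27 (-0.49 ± 0.087), Mrps35 (-0.48 ± 0.051) and Mrps28 (-0.39 ± 0.088) were the lowest in CV relative to ENR. For Mrps35, specific to the mitochondrial small subunit, the libraries gave 53.5, 57.3, 54.2 and 51.0 CPM in CV, 73.9, 76.2, 74.3 and 77.1 in ENR and 51.9, 53.1, 47.3 and 47.9 in EN. ENR was high alone, and CV and EN did not pass the test (-0.11 ± 0.054, adjusted p = 0.072). Mrpl44, Mrps18b, Mrpl54, Mrps30, Mrps9, Mrpl3 and Mrpl9 were also called lower in CV, by 0.17 to 0.39 on the log2 scale, and the calls of Mrps9, Mrpl3 and Mrpl9 were each lost in at least 4 of the fits that left out 1 library. With spike-in scaling 4 members were called in this comparison, all lower in CV, and among all transcripts 1597 were lower and 1039 higher.

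Across the comparisons, which share libraries in pairs, 41 members (51.2%) were called lower in EN than in both other cultures, against 30.7% of all transcripts, and 2 members (2.5%), Mrpl27 and Mrpl34, were called higher than in both, against 27.3%. Calls in none of the comparisons were made for 9 members (11.2%), close to the 11.5% of all transcripts. These were Mrpl12, Mrpl14, Mrpl53, Mrpl55, Mrpl57, Mrps15, Mrps18c and the second transcripts of Mrps27 and Mrps36, with log2 fold changes between EN and CV from -0.28 (Mrpl12) to 0.54 (Mrps27, read in 4 of the 12 libraries with 5 to 15 counts). Among them Mrps18c, a homologue of a bacterial protein, was at 48.8, 48.3, 50.2 and 43.9 CPM in CV, 48.1, 48.6, 47.4 and 52.7 in ENR and 43.0, 42.4, 47.8 and 43.6 in EN. The cultures overlapped, and the log2 fold change between EN and CV was -0.11 ± 0.061. Mrpl12 spread more, from 83.7 to 115 CPM in CV and from 66.2 to 91.6 in EN (-0.28 ± 0.11, adjusted p = 0.034).

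Of the 4 genes listed as 2 transcripts, Mrpl39 was the one whose transcripts were called in opposite directions. The transcript NM_017404.4 had 13.1, 14.5, 15.1 and 14.7 CPM in CV, 13.1, 11.8, 10.2 and 11.5 in ENR and 7.24, 7.71, 6.24 and 7.49 in EN. XM_017317024.1 was the larger part of the gene, at 81.0, 77.9, 79.0 and 61.7 CPM in CV, 114, 99.5, 110 and 106 in ENR and 106, 136, 122 and 106 in EN. The first fell in EN relative to CV (adjusted p = 8e-07) and the second rose, without overlap in either. As a share of the TPM of Mrpl39, NM_017404.4 made up 14.3% to 19.8% in CV, 8.73% to 10.9% in ENR and 5.04% to 6.86% in EN. In each of the comparisons the libraries did not overlap, which gives the smallest two-sided p that an exact permutation test of 4 against 4 libraries can reach, 0.029, or 0.11 after adjustment over the 12 comparisons made for the 4 genes. The shares of the other genes overlapped between all cultures (exact permutation p between 0.4 and 1). How kallisto divided reads between transcripts of one gene sets these values, so counts were also summed per gene. On that scale Mrpl39 (0.47 ± 0.069) and Mrps36 (0.25 ± 0.069) were higher in EN than in CV, and Mrpl1 (-0.64 ± 0.074) and Mrps27 (-1.16 ± 0.11) lower.

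Taken as a sum, members made up 7025, 6993, 7003 and 7024 TPM in CV, 6131, 6228, 6117 and 6129 in ENR and 4728, 4654, 4451 and 4609 in EN. The cultures did not overlap on this scale and stood in the order CV, ENR, EN. The deposited copy numbers, set by the authors from the spike-ins, gave sums of 5534, 4355, 4484 and 3836 in CV, 3972, 4271, 6002 and 2444 in ENR and 8438, 6096, 5963 and 6149 in EN. There EN was above all CV libraries and overlapped ENR. Within a library the copies were not a fixed multiple of the TPM. In EN1, Mrpl41 had 11.9 TPM and 16.1 copies, and Mrpl33 had 223 TPM and 456 copies. A fold change or share on the copies therefore need not equal that on TPM. Over all transcripts the copies averaged 744290 in CV, 979530 in ENR and 1850000 in EN, so that members held 0.563% to 0.675% of all copies in CV, 0.380% to 0.490% in ENR and 0.331% to 0.384% in EN, the last of which overlap. Spike-ins took 0.837% to 1.36% of the counts, with ranges that overlapped between the cultures, and whether the difference in copies reflects the cells was not tested. The balance of the subunits moved little on either scale, with Mrpl members at 1.66 to 1.79 times the summed TPM of Mrps members over the 12 libraries.

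**Figure D3:**
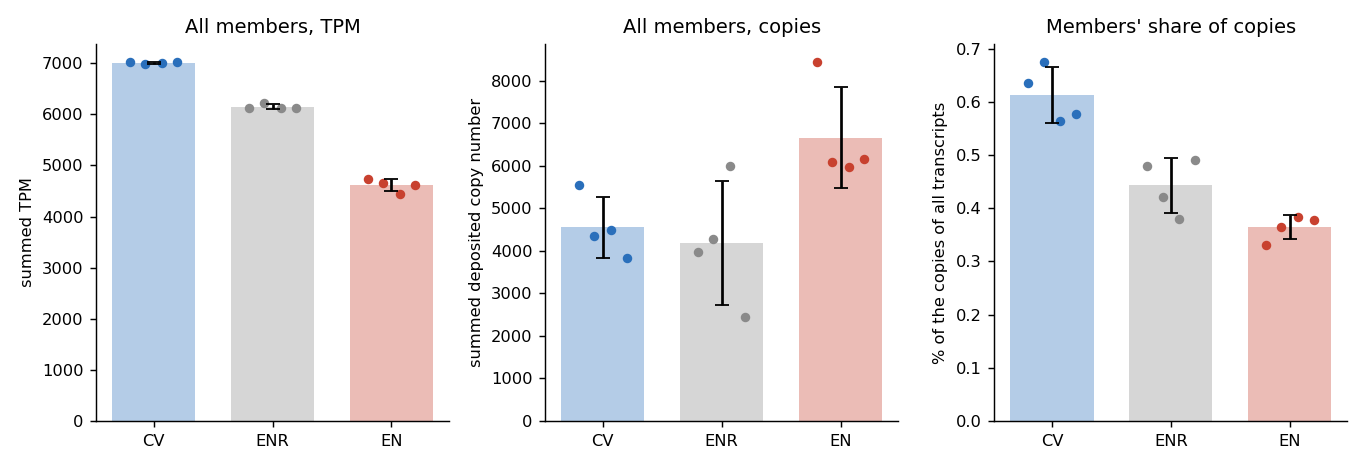
Summed TPM of all members (left), summed deposited copy number (middle) and members as a percent of the copies of all transcripts (right) in CV, ENR and EN, with bars for the mean, error bars for the SD and a point for each of the 4 libraries. Summed TPM descends from 6993 to 7025 in CV to 4451 to 4728 in EN, the mean of the summed copies is highest in EN, and the mean share of copies is lowest in EN.

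Other genes of mitochondrial translation were read in the same fit. Mitoribosome subunits without an Mrp symbol were lower in EN than in CV in 5 of 6 cases. The largest fall was that of Ptcd3, an RNA-binding small-subunit protein (-1.47 ± 0.049), followed by Dap3 (-0.86), a GTP-binding small-subunit protein, Chchd1 (-0.41), Gadd45gip1 (-0.37) and Aurkaip1 (-0.23). The peptidyl-tRNA hydrolase Ict1, built into the large subunit, had -0.21 and was not called (adjusted p = 0.034). Of 22 transcripts of translation factors, 12 were lower and 3 higher in EN, with a median of -0.33. They ranged from Lrpprc (-2.06), which stabilizes mitochondrial mRNAs, and the elongation factor Tsfm (-1.58) to the insertase Oxa1l (0.66). The list of assembly factors had 19 of 30 lower and 3 higher (median -0.55). Its largest fall was that of Ppan (-2.42), which is known as a factor of nucleolar ribosome assembly. C1qbp (-2.31) and the RNA-binding protein Fastkd2 (-2.20) followed, and the rRNA methyltransferase Nsun4 (1.98) rose most. Genes that replicate and transcribe mitochondrial DNA or process its RNA had 12 of 16 transcripts lower and 1 higher (median -0.74), with Pnpt1 (-1.57) and Elac2 (-1.53) at one end and the polymerase subunit Polg2 (1.72) at the other. Ribosomal proteins of the cytosol, matched by symbol, were lower in 67 of 73 transcripts and not called in 6, with a median of -0.60, and all of these counts stand beside the same 41.2% lower and 35.2% higher over all transcripts.

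Chromatin was read at 82 regions that lay within 500 bp of a start site of 75 members, among 16789 such promoter regions of all genes (mm9). Of the 82, 30 also held the start site of another gene, so their scores cannot be assigned to the member alone. For accessibility, 10 of the 82 regions differed over the cultures (12.2%, limma's moderated F test, adjusted p under 0.01), against 23.5% of all promoter regions and 26.9% of all regions. Scores were higher in EN than in CV in 8 of the 10, and in 2172 of 3937 called promoter regions of other genes. For H3K27ac, a mark of active promoters and enhancers, 6 differed (7.32%, against 10.7% of promoter regions and 2.93% of all regions), 5 of them higher in EN than in CV, as were 1527 of 1783 called promoter regions of other genes. These counts were unstable: for accessibility 5 regions were called without CV2, CV3 or ENR4 and 6 without EN3 or EN4, for H3K27ac 3 without EN2, EN3 or EN4, and without limma's trend 2 and 0. None was called for H3K4me3, a mark of active promoters, against 1.90% of promoter regions and 2.35% of all regions. At an unadjusted p under 0.05 by limma this mark had 7 member regions (8.54%), against 32.8% of the promoter regions of other genes and 28.2% of all regions. For H3K27me3, the Polycomb mark, none was called either, against 0.655% and 0.330%. There 6 member regions (7.32%) had an unadjusted p under 0.05 by limma, against 12.7% and 12.5%. The median H3K27ac difference between EN and CV was 0.45 on log2(score + 1) at member regions and 0.17 at the promoter regions of other genes, and in accessibility it was 0.08 and 0.01. Summed over member regions, H3K27ac scores ran from 4535 to 5733 in CV, 6012 to 7431 in ENR and 7257 to 7306 in EN, and ATAC scores from 5325 to 5489, 5376 to 5630 and 5702 to 6021. Scores summed over all regions also differed between libraries. Of these, member regions held 0.337% to 0.409% in CV, 0.438% to 0.493% in ENR and 0.414% to 0.447% in EN for H3K27ac. For accessibility the shares were 0.290% to 0.311%, 0.280% to 0.296% and 0.273% to 0.302%, which overlap. Valproic acid was present in CV alone, and its part in the acetylation values was not tested.

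The accessible region of Mrps35 (mm9 chr6:146990963-146992517), the one with the lowest p, scored 44, 41, 40 and 53 in CV, 56, 69, 74 and 58 in ENR and 89, 96, 86 and 83 in EN. Accessibility rose in steps without overlap, by 0.98 ± 0.13 from CV to EN (adjusted p = 4.6e-05), while the mRNA of Mrps35 was highest in ENR and did not differ in the test between EN and CV. Mrpl33 had more than a single region near its annotated start sites, and the scores of the other are not given here. Its region at mm9 chr5:31898863-31900209 scored 24, 35, 37 and 31 in CV, 45, 33, 21 and 40 in ENR and 19, 10, 13 and 12 in EN. There EN was low (-1.19 ± 0.24 against CV, adjusted p = 0.00037), and H3K27ac at the same region, at 92, 93 and 111 in CV, 163, 117 and 198 in ENR and 62, 80 and 54 in EN, was low in EN as well. The mRNA of Mrpl33, the most abundant member, was called lower in EN than in CV (-0.32 ± 0.067) but not than in ENR (0.08 ± 0.069), and on the copy numbers its value against CV was 0.49.

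The region that held the starts of Mrps18b and of Ppp1r10, on opposite strands (mm9 chr17:36052586-36054892), was called in both datasets. Its H3K27ac scores were 167, 178 and 153 in CV, 451, 301 and 382 in ENR and 558, 399 and 631 in EN (1.64 ± 0.16 from CV to EN, adjusted p = 8.7e-08). CV was low alone, and the mRNA of Mrps18b was lower in CV than in ENR (-0.39 ± 0.095) but was not called between EN and CV (0.09 ± 0.098, adjusted p = 0.39). At Mrps36 (mm9 chr13:101513058-101514731) H3K27ac stood at 46, 71 and 96 in CV, 138, 114 and 110 in ENR and 244, 204 and 223 in EN (1.70 ± 0.24, adjusted p = 6.4e-05). The mark was lowest in CV, whereas the mRNA was lowest in ENR. Mrpl2 (2.26, in a region shared with the start of Klc4), Mrpl4 (39 to 62 in CV, 127 to 165 in EN) and Mrpl40 (0.93, shared with Hira) were the other regions called higher in H3K27ac.

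Members whose mRNA fell most in EN were not called at their promoters. At Mrps6, Mrps5, Mrps22, Mrps25 and Mrps27 the EN minus CV differences were 0.21, 0.32, -0.07, 0.41 and 0.06 in accessibility and -0.44, 0.78, -0.55, -0.87 and -0.23 in H3K27ac (adjusted p over the cultures between 0.017 and 0.86). Regions were then grouped by the RNA call, with the region shared by Mrpl46 and Mrps11 counted once for each gene. Those of genes called lower in EN than in CV had higher H3K27ac in EN in 36 of 53 regions (median 0.17). Those of genes called higher had it in 8 of 9 regions of 6 members (median 1.02), 4 of them along Mrpl48. For accessibility the counts were 30 of 53 (median 0.11) and 3 of 9 (median -0.02). Of the promoter regions of other genes, 9555 of 16696 were higher in EN in H3K27ac and 8437 of 16684 in accessibility. The lowest p for H3K4me3 among members belonged to the regions of Mrpl54, Mrpl48 and Mrpl49 (adjusted p between 0.071 and 0.083), and for H3K27me3 to those of Mrpl22 and Mrpl50 (adjusted p = 0.28 and 0.34) and of Mrpl19, with scores of 22, 11 and 14 in CV, 5, 3 and 2 in ENR and 2, 3 and 2 in EN (adjusted p = 0.20).

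**Figure D4:**
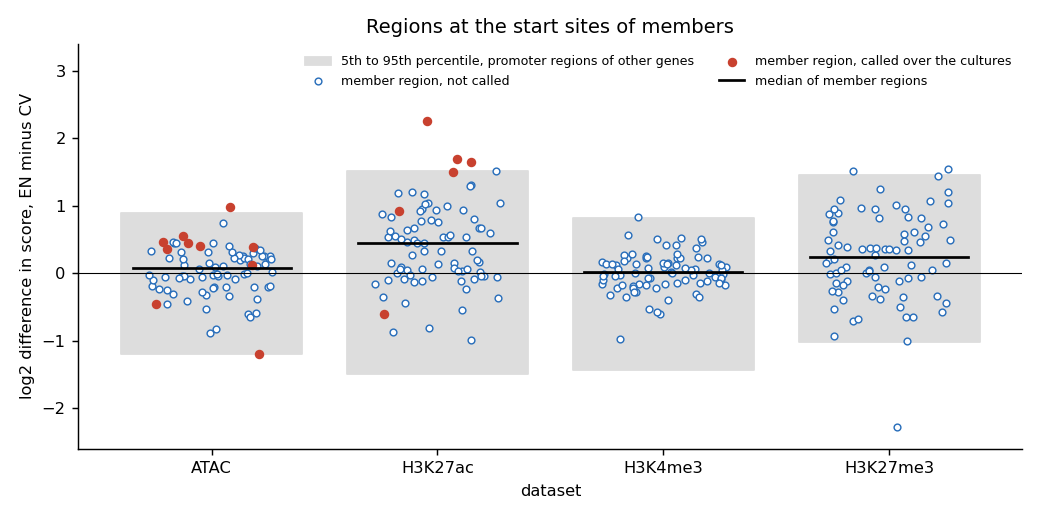
EN minus CV difference in log2(score + 1) at the 82 member regions (points, filled red where called over the cultures) for ATAC, H3K27ac, H3K4me3 and H3K27me3, with the median of member regions as a line and the 5th to 95th percentile of the promoter regions of other genes in grey. Medians lie at 0.08, 0.45, 0.02 and 0.25, and most member points lie inside the grey ranges.

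Hnf4g, a nuclear receptor of enterocytes, was read in 1 library per culture, so the values have no replicate check. Member regions held 102 of 84340 reads in CV, 664 of 352600 in ENR and 4062 of 1816497 in EN, or 121 (95% exact Poisson interval 98.6 to 147), 188 (174 to 203) and 224 (217 to 231) per 100000 reads, intervals that cover counting error only. Over all promoter regions the shares were 36320, 38524 and 55343 per 100000. The region of Mrpl40 held the most reads among members in EN, 220, after 6 in CV and 26 in ENR. Of the 82 regions, 49 held no read in CV, 9 in ENR and 0 in EN, at depths that differ by more than the shares do.

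Promoter sequences of RefSeq (GRCm38.p6, 250 bases before to 50 after the start) were matched for 67 of the 76 members and searched on both strands for 6 motifs. The ETS motif CCGGAAG, the core that GABP (also named NRF2) and related factors bind, was in 37.3% of the members, 21.6% of the 7003 matched genes of the RNA table and 9.93% of all 27025 genes. The NRF1 motif GCGCATGC was in 11.9%, 6.51% and 3.05%, and the YY1 motif AANATGGCG in 13.4%, 6.83% and 2.76%. The SP motif GGGCGG was in 50.7% of members, less than in genes of the RNA table (69.2%) but more than in all genes (38.2%). The E-box CACGTG was in 5.97%, 12.3% and 8.09%. The HNF4 motif CAAAGTCCA was in 0 members, 0.671% of the table's genes and 0.555% of all genes, too rare to compare in 67 members. These shares describe letters in a window. Of the members with an ETS match, 15 of 26 transcripts were lower in EN than in CV and 3 higher (median -0.29), and 33 of 45 without one were lower and 2 higher (median -0.41).

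**Figure D5:**
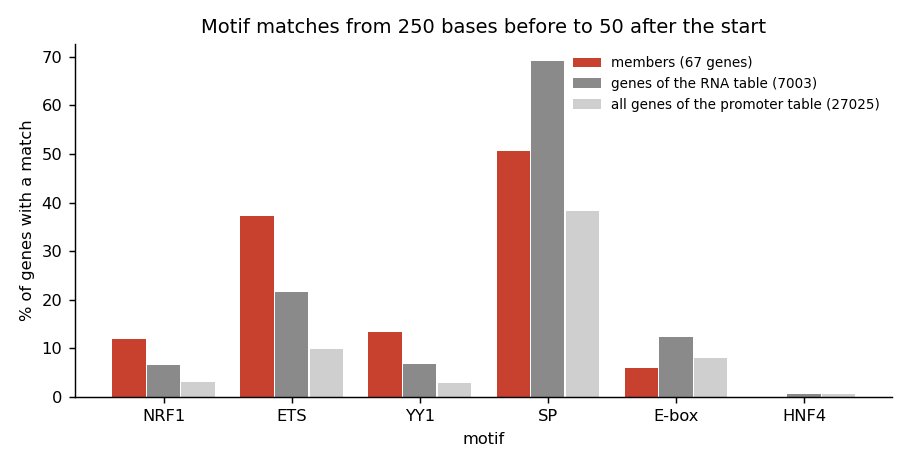
Percent of genes with at least 1 match of each motif (y axis) from 250 bases before to 50 after the start, for the 67 matched members, the 7003 matched genes of the RNA table and all 27025 genes. ETS, NRF1 and YY1 matches are more frequent among members (37.3%, 11.9% and 13.4%) than in both other sets. SP matches are less frequent among members than among the genes of the RNA table (50.7% against 69.2%) but more frequent than among all genes (38.2%).

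The ETS match is shown for the members with the 2 largest called falls that hold one, and for Mrpl27 and Mrpl34, the members called higher in EN than in both other cultures, since both directions occur with the same letters. Each is given from 5′ to 3′ on the strand of the gene with 10 bases on either side and the match in capitals (CTTCCGG is its reverse complement), at GRCm38.p6 chr9:98601674-98601700, chr13:99344728-99344754, chr11:94653726-94653752 and chr8:71464879-71464905 in this order, the first on the minus strand and the others on the plus strand. Mrps22 and Mrps27 fell by 1.38 and 1.20 (log2) between CV and EN, and Mrpl27 and Mrpl34 rose by 0.76 and 0.50.
Mrps22: acctctcgagCCGGAAGttgctctatc
Mrps27: ggtaggaccaCTTCCGGcggaggcggg
Mrpl27: tccgcaagacCCGGAAGtagatctatc
Mrpl34: actacagctcCCGGAAGgccccgcggc

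The 250 bases before the start are shown for Mrps6, the largest fall, and Mrps36, the largest called rise from ENR to EN, with matches of the searched motifs in capitals. All matches in both are of the SP motif, 4 in Mrps6 (chr16:92058086-92058335, plus strand) and 2 in Mrps36 (chr13:100744660-100744909, minus strand), and the stretches differ in base composition, with 74.4% and 45.6% G and C. Mrps6 shares its start region with Slc5a3, which encodes a myo-inositol transporter.
Mrps6: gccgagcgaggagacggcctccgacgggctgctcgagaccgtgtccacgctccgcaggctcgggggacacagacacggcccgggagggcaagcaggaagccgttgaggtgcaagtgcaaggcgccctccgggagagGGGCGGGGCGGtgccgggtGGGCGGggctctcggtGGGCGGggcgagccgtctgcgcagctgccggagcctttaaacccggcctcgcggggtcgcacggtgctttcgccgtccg
Mrps36: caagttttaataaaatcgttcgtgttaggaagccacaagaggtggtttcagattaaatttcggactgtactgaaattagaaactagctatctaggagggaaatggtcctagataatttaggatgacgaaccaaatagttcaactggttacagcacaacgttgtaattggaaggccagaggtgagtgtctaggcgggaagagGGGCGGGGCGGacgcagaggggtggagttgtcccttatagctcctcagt

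Members often lay near the start of a gene on the opposite strand. In the mm9 annotation 29 of the 76 members (38.2%) had such a start within 1000 bp on either side. The share was 16.6% of 8337 protein-coding genes of the RNA table and 10.8% of 22380 in all. Some of these starts lay upstream, head to head, as for Mrps12 and the mitochondrial seryl-tRNA synthetase Sars2 (171 bp). Others lay inside the member, so that the genes overlapped at their starts (negative distances). Among these were Mrps11 with Mrpl46 (-412 bp), Mrpl43 with the mitochondrial DNA helicase Peo1 (-369 bp) and Mrpl47 with the complex I subunit Ndufb5 (-157 bp). The mRNAs of the overlapping pair Mrps11 (-0.76 ± 0.12) and Mrpl46 (-0.43 ± 0.091) were both lower in EN than in CV. Of the 30 transcripts of paired members, 19 were lower and 3 higher (median -0.28), and of the 50 without a partner 34 were lower and 4 higher (median -0.44).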

How the data were processed

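RNA-seq was read in 12 libraries (4 each of CV, ENR and EN), ATAC-seq in 12, each histone mark in 9 and Hnf4g in 3, grouped by the sample labels. The labels do not say whether libraries of a culture came from separate cultures, so p-values measure the spread between these libraries, which may be technical. The members and gene lists were chosen with earlier results of these data known.

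The RNA table that the authors deposited holds expected counts from kallisto (0.43.0 per the labels, strand-specific, RefSeq transcripts limited to those whose proteins had been quantified), with TPM values that the authors deposited beside them and copy numbers that the authors deposited after setting them from ERCC spike-ins added during rRNA depletion. The chromatin table that the authors deposited gives, over the union of peaks (BWA to mm9, Picard, MACS2 2.0), a score rounded to whole numbers, whose normalization is not given in the sources used here, and over regions extended to 1000 bp for H3K27me3. For Hnf4g the authors deposited raw read counts. Histone libraries in the labels without a column in the table were not used here, nor were the Hnf4g knockout and its control.

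Rounded counts of 9288 transcripts above 0 in at least 4 libraries were fitted with edgeR 4.0.16 (TMM, quasi-likelihood, common dispersion 0.00475) in R 4.3.3, with Benjamini-Hochberg adjustment and a threshold of 0.01. Fold changes are on the log2 scale with SE. Regions whose score was above 0 in 3 or more libraries were tested as log2(score + 1) with limma 3.58.1 (trend, moderated F over the 3 cultures). The RNA test was checked on simulated counts for EN versus CV, and the region test on simulated ATAC and H3K4me3 scores. H3K27ac and H3K27me3 were not simulated. The change simulated for H3K4me3 was far larger than any at member regions, so that check cannot speak to small differences. Start sites came from GENCODE on mm9, gene sequences from RefSeq promoters on GRCm38.p6. Python 3.11.15, NumPy 2.4.6, pandas 2.3.3 and SciPy 1.17.1 were used otherwise. Alternatives were DESeq2 1.42.0, other normalizations and scales, filters, thresholds, a replicate block, leaving out each library and, chosen after seeing the data, counts summed per gene.

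Named members were, in each comparison, the 5 largest called rises and falls and those called against the median of the members, the 5 highest and 5 lowest in mean TPM, those called in no comparison and those with 2 transcripts. Of other lists up to 3 rises and falls were named, and the 3 regions of lowest p per dataset. Libraries held 5630977 to 8859757 counts, so that 3 counts correspond to 0.361 to 0.642 CPM. Libraries of a culture differed by more than sampling noise (chi-square per degree of freedom 2.37 to 6.67), so none was counted as a second sequencing of another. Whether some were separate preparations of the same RNA cannot be told from these values.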

Additional observations from a re-analysis of the deposited data

Results flagged for a closer look

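In groups of 4 libraries, 12 of 138 checked for members held 1 library far from the other 3 (8.7%, where chance gives about 1 in 20). In TPM, Mrps28 was at 67.9 in CV3 against 82.1 to 82.6 in the other CV libraries, Mrpl53 at 69.5 in CV1 against 77.9 to 79.5, Mrpl33 at 249 in ENR2 against 228 to 232 and Mrps5 at 86.8 in ENR3 against 81.3 to 82.0. In EN, Mrps30 was at 33.0 in EN1 against 28.2 to 28.9, Mrpl17 at 6.01 in EN4 against 7.81 to 8.05, Mrps36 (NM_025369.3) at 78.1 in EN1 against 94.6 to 97.5 and Mrpl57 at 24.2 in EN2 against 19.8 to 20.2. The second transcript of Mrps27 was read in 1 library of CV (1.59 in CV3) and in 1 of EN (1.63 in EN1) and listed at 0 in the others of these cultures. The summed TPM of all members was 6228 in ENR2 against 6117 to 6131, and the summed copies were 8438 in EN1 against 5963 to 6149.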

How the results depend on the processing

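Of the 43 named members' values, 828 of 940 alternatives kept direction and side of the threshold, 78 lost the call, 23 gained one and 11 turned. With DESeq2 and with RLE factors no named value changed its call. Turned values were, with spike-in scaling, Mrpl4 (-0.016), Mrpl43 (-0.017) and Mrps21 (-0.25) in EN versus ENR and Mrpl54 (-0.063) and Mrps24 (-0.26) in EN versus CV; on TPM, Mrps24 (-0.17, or -0.18 with a pseudocount of 0.1); and on copies, in EN versus CV, Mrpl17 (0.098), Mrpl33 (0.49), Mrpl52 (0.12) and Mrpl1 NM_053158.3 (0.071). The cause was not tested.

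The members' median in EN versus CV was -0.33 with DESeq2, -0.33 with RLE factors, -0.34 when only the 2 cultures compared were fitted, -0.81 with spike-in scaling, -0.69 and -0.71 on TPM with pseudocounts of 1 and 0.1 and 0.37 on copies. In EN versus ENR it was -0.31, -0.31, -0.86, -0.51, -0.53 and 0.62 with DESeq2, RLE, spike-in scaling, both TPM fits and copies, and in CV versus ENR -0.0067, -0.0063, -0.071, 0.17, 0.17 and 0.19. In EN versus CV, 0, 3, 3 and 18 members were called higher with spike-in scaling, both TPM fits and copies, and copies gave 19 calls, 1 lower. Over all transcripts 1473, 2263, 2249 and 4418 were called higher and 4292, 4976, 4954 and 1258 lower there. In EN versus ENR, 10 were called higher at an adjusted p under 0.05, 10 with RLE and 0 with spike-in scaling, and copies gave 30 calls, 30 higher and 0 lower (all transcripts 5497 higher, 789 lower). In CV versus ENR, spike-in scaling gave 4 calls, 4 lower and 0 higher, both TPM fits 35 higher and 5 lower, and copies 2 calls, 2 higher and 0 lower (all transcripts 1039 higher and 1597 lower, 3713 and 1895 or 3634 and 1820, and 1409 and 461).

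Leaving out 1 library moved the median between -0.41 and -0.37 (EN versus CV), -0.37 and -0.30 (EN versus ENR) and -0.0079 and 0.044 (CV versus ENR, below 0 at -0.0024 without CV4, -0.00021 without ENR1 and -0.0079 without ENR3), and the calls between 56 and 61, 48 and 52 and 27 and 36. Calls higher ran from 6 to 8, 4 to 7 and 19 to 24, and calls lower from 50 to 53, 44 to 48 and 8 to 12. Member regions called for ATAC were 2 without the trend, 25 at an adjusted p under 0.05 and 5 to 12 with 1 library left out (5 without CV2, CV3 or ENR4, 6 without EN3 or EN4). For H3K27ac they were 0 without the trend, 3 after quantile normalization, 13 at an adjusted p under 0.05 and 3 to 5 with 1 library left out (3 without EN2, EN3 or EN4).

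Replicate numbers did not pair the RNA libraries: deviations of same-numbered libraries correlated by -0.08 to 0.11. For ATAC they correlated by 0.07 to 0.46, over 0.1 in 8 of 12 pairs but not in every pair. With a block for the replicate number, the RNA counts were 60, 53 and 33, Mrps24 lost its call (adjusted p = 0.014) and Mrpl12 gained one (0.0068), while H3K27ac had 0 regions called and ATAC 15.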
